A study of Mus musculus with 9 samples.

Results

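Trp53 and 9 of its target genes (Cdkn1a, Mdm2, Ccng1, Phlda3, Zmat3, Bbc3, Bax, Sesn2 and Trp53inp1) were followed in sorted mouse pancreatic ductal adenocarcinoma (PDAC) cells with and without Yap. These 10 genes were chosen by name, as the transcription factor p53 and well-known targets of it. They and the gene lists below were chosen with earlier results of these data known. Their Ensembl identifiers were found among the 47643 genes counted. All 10 had enough reads to be among the 14105 genes tested. Trp53 itself and Mdm2 differed between the groups by less than their standard errors, and Cdkn1a was 2.44-fold and Trp53inp1 9.60-fold lower in the Yap- cells. Cdkn1a was −0.64 on the log2 scale with 3 libraries rich in other cell markers left out, against −1.28 with all 9. None of the 10 passed an adjusted p value of 0.05 with edgeR, against 1.1% of all genes. DESeq2 called Trp53inp1 alone of the 10, against 8.71% of the genes to which it gave an adjusted p.

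KPF mice, the controls, gave GFP+Yap+ cells for 6 libraries. They carry the Pdx-Flp driver, a Flp-activated oncogene, 1 frt-flanked allele of Trp53 (Trp53 frt/+), and both FSF-CreER and the Dual reporter at R26. KPYYF mice carry all of these and also Yap flox/flox, and gave Tm+Yap- cells for the other 3 libraries. In both groups the Flp recombinase, driven by the Pdx1 promoter in the pancreas, turns on this oncogene and deletes the frt-flanked Trp53 allele, so the KPF cells are no Trp53 wild-type control. The second Trp53 allele is wild-type in the germline, and its state in the sorted tumor cells was not measured here. The reporter gives EGFP after Flp and tdTomato (Tm) once tamoxifen has activated CreER, which in KPYYF mice also deletes Yap. Mice received tamoxifen in the diet after tumors could be felt, and the ages of the individual mice are not given in the labels. The paper took the cells from relapsed nodules of tamoxifen-treated tumors. It describes the Yap- nodules as highly proliferative, mostly poorly differentiated, and arising after long treatment. Genotype, loss of Yap, reporter color, Cre recombination and outgrowth as a Yap- relapse change together between the groups and cannot be told apart. The KPF libraries 4504h and 4504s carry the same mouse number.

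p53 is a transcription factor that is held low by the ubiquitin ligase Mdm2 and accumulates after DNA damage, oncogene activity and other stress. It binds paired decamers in DNA and activates genes for cell cycle arrest, apoptosis, repair and metabolism, among them Mdm2 itself, which closes a negative feedback loop. In the pancreas, loss of p53 function is a well-known step on the way to invasive carcinoma.

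The promoter sequences are shown first, since p53 acts on its targets through such sites. RefSeq promoters on GRCm38.p6, 250 bases before to 50 bases after each start, were in the table used for 8 of the 10 genes, and not for Zmat3 and Trp53inp1. The p53 consensus, 2 adjoining p53 decamers of 10 bases each with no spacer, was searched on both strands with up to 2 mismatches. It was found in 2 of the 8 genes, Cdkn1a and Ccng1, each with 1 mismatch, against 254 of 27025 genes in the table (0.94%) and 1 of 33 further p53 targets (3.03%). A perfect single decamer was present in 5 of the 8 (62.5%), namely Trp53, Cdkn1a, Mdm2, Ccng1 and Bax, against 9.55% of all genes and 21.2% of the 33 further targets. The runs below give the best 20-base match in capitals with flanking bases in lower case, read 5′ to 3′ along the gene.
Cdkn1a, chr17:29090913-29090962, plus strand, 1 mismatch: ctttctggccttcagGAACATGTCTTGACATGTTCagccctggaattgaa
Ccng1, chr11:40755447-40755496, minus strand, 1 mismatch: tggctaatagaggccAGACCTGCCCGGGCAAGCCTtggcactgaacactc
Mdm2, chr10:117710910-117710959, minus strand, 5 mismatches: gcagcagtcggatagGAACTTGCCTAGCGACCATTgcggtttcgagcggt
Trp53, chr11:69580269-69580318, plus strand, 3 mismatches: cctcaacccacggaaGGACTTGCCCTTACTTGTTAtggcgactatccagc
The Cdkn1a match begins 51 bases before the first start of the gene and 2841 bases before its second start. The Ccng1 match begins 195 bases before its start. In Mdm2 the first 10 capitals are a perfect decamer and the second 10 are not, and the same holds for Trp53. Best matches in Bbc3 and Bax had 3 mismatches and those in Phlda3 and Sesn2 had 5. These letters describe the promoter window only, and sites further away or in introns were not searched.

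The 9 libraries held between 8116539 and 9635514 reads on genes. Levels below are TMM-normalized CPM, which scales the reads of each gene to the same library total. Where a library has 0 reads of a gene, up to 3 reads (0.292 to 0.437 CPM on this scale) remain possible by counting error alone. The libraries are 3′ end libraries, so a read marks the end of a transcript and not its whole length. Yap1, the deleted gene, ran from 41.8 to 151 CPM with Yap intact and from 0.712 to 7.12 CPM after its deletion (−4.79 on the log2 scale, edgeR adjusted p = 0.0159), which matches the labels. Of 7 ductal and epithelial markers, 5 were lower in KPYYF by an unadjusted p under 0.05 and more than 2-fold, against 9.2% of all genes. Krt18 (edgeR adjusted p = 0.0141) and Cdh1 (0.0351) also passed the adjusted threshold, as 0.794% of all genes did in the lower direction. Sums of the 7 were 3467 to 8451 CPM in KPF against 603 to 1870 CPM in KPYYF. In bulk samples, fewer cells of a type and less RNA per cell cannot be told apart. Of the 9 libraries, 3 stood apart by immune or acinar markers. KPF 4601 had 7646 CPM of the 8 immune markers against 353 to 1293 CPM in the other libraries. KPF 4504s and KPYYF 4449 had 14277 and 3611 CPM of the 6 acinar markers, against 46.4 to 666 CPM elsewhere, although the acinar marker Amy2a5 was at 0 in all 9. The 7 fibroblast markers varied widely too, from 404 CPM in 4269 to 5413 CPM in 4504s among KPF and from 1103 to 3047 CPM among KPYYF. Reads of Xist, an RNA from the X chromosome, were 3452 to 16108 in the KPYYF libraries. In KPF they were 79, 71 and 159 in 4269, 4515 and 4601, and 5878 to 10933 in the others. The sex of each mouse is not given here, and its part in the differences was not tested.

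Trp53 (ENSMUSG00000059552, chromosome 11, 69580359 to 69591873, plus strand) ran from 14.3 CPM in library 4601 through a median of 23.7 CPM to 34.2 CPM in library 4504h in KPF cells. It was at 28.3, 13.7 and 33.0 CPM in the KPYYF libraries 4449, 4891 and 4938. The lowest and the second highest of the 9 values were thus both in Yap- cells, and the groups overlapped over nearly their whole range. The difference of KPYYF from KPF was 0.06 on the log2 scale with a standard error of 0.43 (edgeR adjusted p = 0.968), and an exact permutation test over all 84 arrangements gave p = 0.94. Trp53 reads do not check the deletion, since the sources used here do not give how much of the gene the frt sites flank, and transcripts of a wild-type allele or of other cells would also be counted. The processed pseudogene Trp53-ps and the noncoding RNA Trp53cor1, which lies near Cdkn1a, are both on chromosome 17 and had 0 counts in every library. Of the family members, Trp63 had 10 counts in all 9 libraries together and Trp73 had 0.

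**Figure D1:**
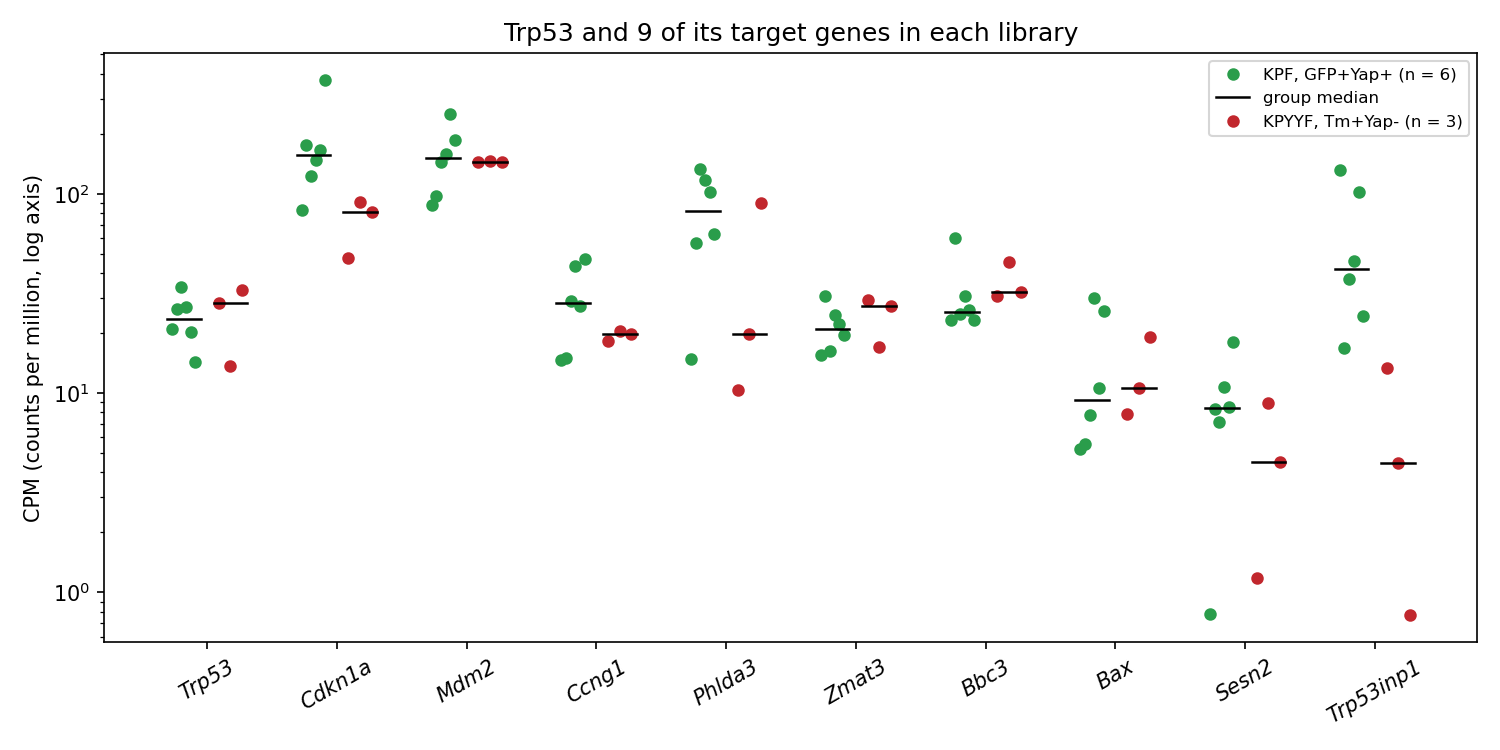
Levels of Trp53 and 9 of its targets in CPM on a log axis, with 1 point per library (6 KPF in green, 3 KPYYF in red) and a bar at each group median. All 3 KPYYF points lie below all 6 KPF points for Trp53inp1 alone, and the KPYYF values of Mdm2, at 145 to 147 CPM, nearly coincide.

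Cdkn1a codes for p21, the cyclin-dependent kinase inhibitor through which p53 arrests the cell cycle (ENSMUSG00000023067, chromosome 17, 29090976 to 29100727, plus strand). Its level was 82.8 CPM in KPF 4269, 175 CPM in 4435, 122 CPM in 4504h, 148 CPM in 4504s, 166 CPM in 4515 and 373 CPM in 4601. In the KPYYF libraries it was 47.5 CPM in 4449, 91.0 CPM in 4891 and 80.6 CPM in 4938. Every Yap- library lay below the KPF median of 157 CPM, and the groups overlapped only through KPF 4269. The log2 fold change was −1.28 with a standard error of 0.44 (edgeR adjusted p = 0.169), and the exact permutation test gave p = 0.0595. The highest value came from KPF 4601, the library with the high immune markers. Without that library Cdkn1a was −0.90 on the log2 scale (edgeR adjusted p = 0.223), under 2-fold. Without KPYYF 4449 it was −1.05 (edgeR adjusted p = 0.315), and the unadjusted p was no longer under 0.05. With 4601, 4504s and 4449 all left out it was −0.64 (edgeR adjusted p = 0.447). In the libraries with at least 1000 Xist reads, without KPF 4269, 4515 and 4601, it was −1.01 (edgeR adjusted p = 0.279). The part of other cells in this difference was not tested.

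Trp53inp1, the p53-inducible nuclear protein that takes part in apoptosis and autophagy, showed the largest difference of the 10 (ENSMUSG00000028211, chromosome 4, 11156431 to 11174379, plus strand). It was at 131 CPM in KPF 4269, 16.8 CPM in 4435, 37.4 CPM in 4504h, 46.2 CPM in 4504s, 102 CPM in 4515 and 24.3 CPM in 4601. In the KPYYF libraries it was at 13.4 CPM in 4449, 4.48 CPM in 4891 and 0.767 CPM, or 7 reads, in 4938. This was the only member whose groups did not overlap, which held in the lower direction for 5.18% of all genes tested. The levels varied widely within each group, 7.81-fold among KPF and 17.5-fold among KPYYF libraries. The log2 fold change was −3.26 with a standard error of 0.96 (edgeR adjusted p = 0.127). The exact permutation test gave p = 0.0119, the smallest that 84 arrangements allow. The unadjusted p stayed under 0.05 in all 18 alternative fits, with log2 fold changes from −4.74 to −2.44. Among these fits DESeq2 alone put it past the adjusted threshold (adjusted p = 0.000988). With 4601, 4504s and 4449 left out, Trp53inp1 was −4.74 on the log2 scale (edgeR adjusted p = 0.0755). In the libraries with at least 1000 Xist reads, without KPF 4269 and 4515, where it was highest, and 4601, it was −2.44 (edgeR adjusted p = 0.303). Epithelial markers were also lower in the KPYYF libraries, and their part in the Trp53inp1 difference was not tested.

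Cdkn1a and Trp53inp1 were the 2 of 10 members called lower by the rule of the study's methods. That rule, an unadjusted p under 0.05 and more than 2-fold, was applied here to edgeR, where the study used DESeq2. It called 9.2% of all genes lower and 13.4% in either direction. No member was called higher by that rule, against 4.2% of all genes. At an adjusted p of 0.05, 0 of 10 were called by edgeR, against 1.1% of all genes in either direction (0.305% higher and 0.794% lower), and DESeq2 called 1 of 10, against 8.71% of the 13748 genes to which it gave an adjusted p. The count by the methods' rule was 1 without KPF 4601, 1 without KPYYF 4449, 1 without all 3 libraries rich in other markers, and 3 without KPYYF 4938.

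Mdm2 and Ccng1 belong to the feedback arm. Mdm2, the ligase that marks p53 for degradation (ENSMUSG00000020184, chromosome 10, 117688875 to 117710758, minus strand), ran from 87.4 through a median of 152 to 251 CPM in KPF libraries. It was at 145, 147 and 145 CPM in the KPYYF libraries 4449, 4891 and 4938. The 3 Yap- values lay together in the middle of a 2.87-fold KPF range (log2 fold change −0.08, standard error 0.33, edgeR adjusted p = 0.942). Ccng1, or cyclin G1, which brings a phosphatase to Mdm2 (ENSMUSG00000020326, chromosome 11, 40748552 to 40755311, minus strand), ran from 14.6 through a median of 28.3 to 47.2 CPM in KPF. It was at 18.3, 20.4 and 19.8 CPM in KPYYF libraries. These 3 values were again close together and lay above the 2 lowest KPF libraries and below the other 4 (−0.60, standard error 0.47, adjusted p = 0.586).

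Among the apoptosis members, Bbc3 codes for Puma, a BH3-only activator of cell death, and Bax codes for the protein that opens the mitochondrial outer membrane. Bbc3 (ENSMUSG00000002083, chromosome 7, 16308393 to 16318205, plus strand) ran from 23.2 through a median of 25.5 to 59.7 CPM in KPF and was at 30.9, 45.6 and 32.1 CPM in KPYYF. The 3 KPYYF values exceeded the KPF median, and the highest value of all was KPF 4435 (0.21, standard error 0.40, edgeR adjusted p = 0.858). Bax (ENSMUSG00000003873, chromosome 7, 45461697 to 45466898, minus strand) ran from 5.25 through a median of 9.20 to 30.1 CPM in KPF and was at 7.84, 10.6 and 19.1 CPM in KPYYF. Its 2 highest libraries were KPF 4504s and 4601, both rich in markers of other cells, and the difference (−0.18, standard error 0.69, adjusted p = 0.938) was 1.05 on the log2 scale with those libraries and KPYYF 4449 left out (adjusted p = 0.527).

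Phlda3 and Sesn2 act on growth signaling, Phlda3 by blocking Akt at the membrane and Sesn2 by restraining mTORC1. Phlda3 (ENSMUSG00000041801, chromosome 1, 135766119 to 135769136, plus strand) was at 14.8, 56.8, 133, 117, 102 and 62.5 CPM in KPF libraries 4269, 4435, 4504h, 4504s, 4515 and 4601. It was at 10.3, 19.8 and 90.2 CPM in KPYYF 4449, 4891 and 4938. Of the Yap- libraries, 4449 lay below all 6 KPF libraries, 4891 below 5 of them and 4938 in their middle (−1.01, standard error 0.75, edgeR adjusted p = 0.564). Without 4938 the difference was −2.43 (edgeR adjusted p = 0.194). Sesn2 (ENSMUSG00000028893, chromosome 4, 132492032 to 132510501, minus strand) ran from 0.778 through a median of 8.41 to 18.1 CPM in KPF and was at 1.19, 8.97 and 4.49 CPM in KPYYF. KPF 4269 and KPYYF 4449 were the low libraries, 1 in each group (−0.87, standard error 0.94, adjusted p = 0.721). Another annotated RNA, Gm12981, with 129 reads over the 9 libraries, overlaps Sesn2 from 132503561 to 132509649. The 3′ end of Sesn2, at 132492032, lies outside this stretch, and how reads shared by both were counted was not checked.

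Zmat3, an RNA-binding zinc finger protein that controls splicing downstream of p53 (ENSMUSG00000027663, chromosome 3, 32334792 to 32366014, minus strand), varied least of the 9 targets, 1.97-fold from the lowest to the highest library. It ran from 15.5 through a median of 20.9 to 30.5 CPM in KPF and was at 29.3, 16.9 and 27.4 CPM in KPYYF (0.19, standard error 0.40, edgeR adjusted p = 0.873).

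**Figure D2:**
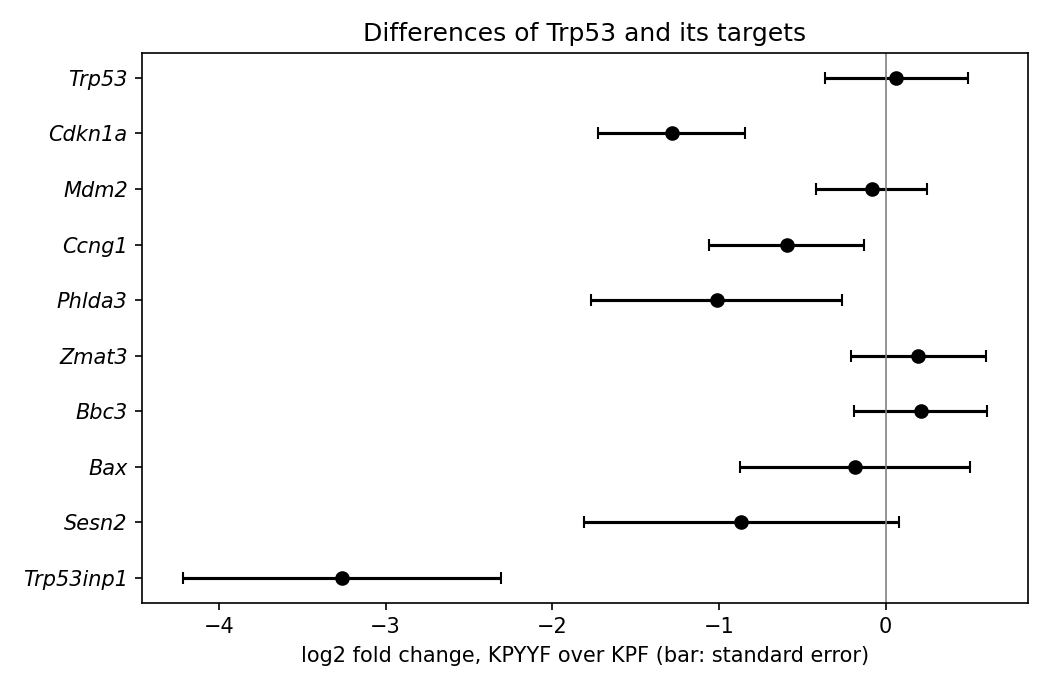
Log2 fold change of KPYYF over KPF for each of the 10 genes, with bars of 1 standard error from edgeR's quasi-likelihood fit. Values run from −3.26 for Trp53inp1 to 0.21 for Bbc3, and the line at 0 marks no difference.

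Over the 10 genes the median log2 fold change was −0.39, and over the 9 targets it was −0.60, against −0.07 over all genes tested. Of the 9 targets 7 had a negative value and 2, Zmat3 and Bbc3, a positive one, while 46.7% of all genes had a positive one. The median of the 9 targets became 0.03 when 4601, 4504s and 4449 were left out together, a setting chosen after seeing the data. It stayed negative in the other 17 of 18 alternatives, and the cause of the change was not tested.

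The targets also differed from library to library inside the KPF group. KPF 4269 had the lowest value of all 9 libraries for 6 of the 9 targets and was among the lowest 3 for 8 of them, with Trp53inp1, where it was highest, as the exception. KPF 4504s was among the highest 3 for 6 targets, and KPF 4601 for 5. In the KPYYF group, 4449 was among the lowest 3 for 5 targets, and 4891 and 4938 for 3 each. The level of Trp53 did not follow this order. KPF 4601, with the second lowest Trp53, had the highest Cdkn1a, Ccng1 and Sesn2.

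**Figure D3:**
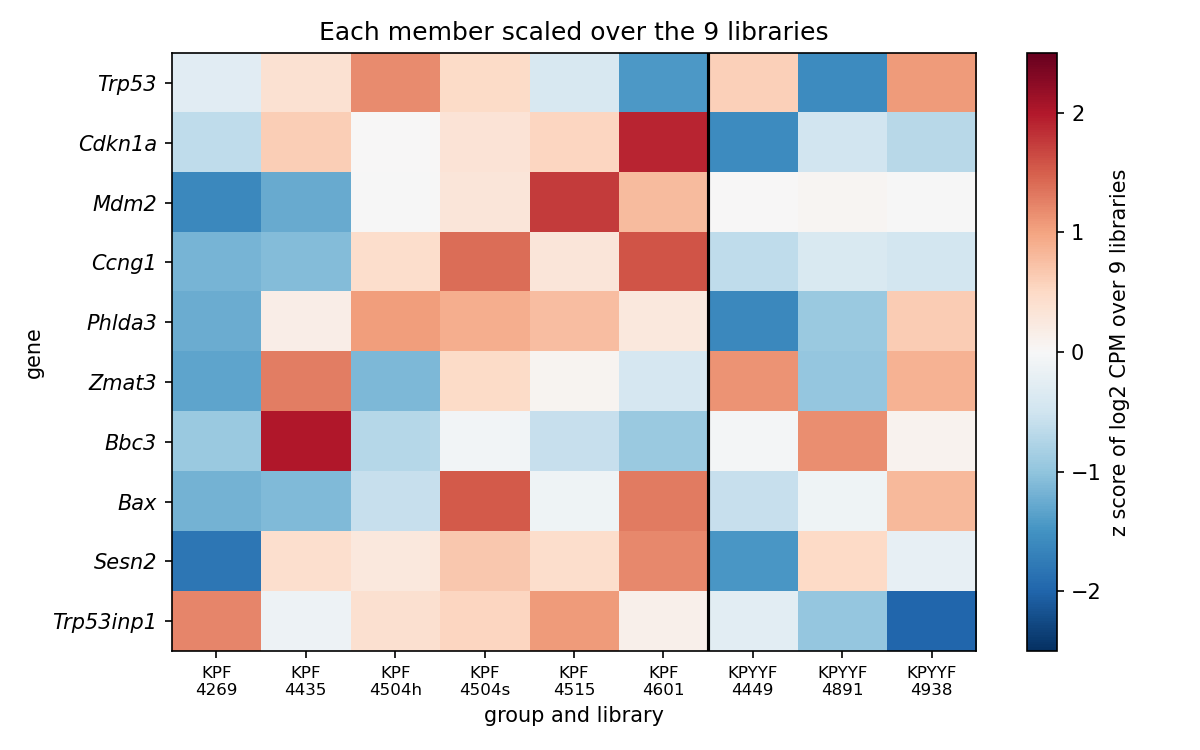
Each gene's log2 CPM as a z score over the 9 libraries (red above and blue below its own mean), with KPF libraries left and KPYYF libraries right of the line. KPF 4269 is blue for 8 of the 9 targets, and the row of Trp53 is unlike the rows below it.

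Among the 5 genes whose log2 CPM was most like that of Trp53 over the 9 libraries, out of 8889 with a mean of at least 10 CPM, were Ank1 (Pearson r = 0.94), Disp1 (0.90) and Vdac3 (0.88). Those most like Cdkn1a were Chfr (0.95), Acp5 (0.95), Zfp219 (0.94), Cerk (0.94) and Pim1 (0.93). The libraries are few and share group and cell makeup, and these values only describe likeness. None of these was another member or another p53 target of the lists below.

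Upstream of the targets, 15 of 17 regulators and relatives of p53 were tested, and 12 of the 15 had a positive difference (median 0.30). By the methods' rule 2 were higher and 1 was lower, against 4.2% and 9.2% of all genes, so 3 of 15 were called where the rule called 13.4% of all genes, and 0 passed the adjusted p with edgeR. Cdkn2a, the locus of p16Ink4a and of p19Arf, the inhibitor of Mdm2, was at 92.0 to 496 CPM (median 211) in KPF and 306 to 765 CPM in KPYYF (1.25, standard error 0.43, edgeR adjusted p = 0.170). Both transcripts share their 3′ end, so these reads do not separate them. Chek2, a kinase that phosphorylates p53 after DNA damage, was at 2.56 to 11.9 CPM in KPF and 11.2 to 29.1 CPM in KPYYF (1.36, standard error 0.59, adjusted p = 0.273). Hipk2, another p53 kinase, was lower, at 32.9 to 78.5 CPM in KPF and 15.6 to 35.9 CPM in KPYYF (−1.31, standard error 0.44, adjusted p = 0.161). Mdm4, the partner of Mdm2, was at 72.6 to 101 CPM in KPF and 75.9 to 145 CPM in KPYYF (0.34, standard error 0.27, adjusted p = 0.599).

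A wider list of 43 further p53 targets was read in the same way, of which 39 were tested. Of these 30 were negative and 9 positive, with a median of −0.47. By the methods' rule 7 were lower and 0 higher, against 9.2% and 4.2% of all genes, and none passed the adjusted p. Without 4601, 4504s and 4449 the median was −0.88 and the count 8. This list and its parts below were also chosen with earlier results of these data known.

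Of 7 cell cycle targets tested, 6 had a negative difference, and 2 were called lower by the methods' rule, against 9.2% of all genes, with neither past the adjusted p. Gadd45a, a growth arrest and DNA damage protein, was at 18.5 to 58.3 CPM in KPF and 1.42 to 24.6 CPM in KPYYF (−1.92, edgeR adjusted p = 0.185). Sfn, or 14-3-3 sigma, which is also an epithelial gene, was at 16.9 to 629 CPM in KPF and 24.0 to 62.0 CPM in KPYYF (−2.59, adjusted p = 0.297). Plk2 was at −1.11 (adjusted p = 0.342). Of 5 DNA repair targets, Xpc, which recognizes damage in nucleotide excision repair, was the 1 called lower by that rule, at 13.4 to 41.3 CPM in KPF and 4.49 to 14.4 CPM in KPYYF (−1.58, adjusted p = 0.178), while the bypass polymerase gene Polk was at −0.60 (adjusted p = 0.558) and Rrm2b, a p53-inducible subunit of ribonucleotide reductase, at −0.56 (adjusted p = 0.859).

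Secreted and surface targets held most of the calls, with 4 of 6 lower by the methods' rule, against 9.2% of all genes. The count past the adjusted p was 0, and the list was chosen with earlier results of these data known. Among the 4 were Thbs1, Epha2 and Cx3cl1. Thbs1, the antiangiogenic matrix protein thrombospondin 1, was at 104 to 301 CPM in KPF and 85.4 to 93.4 CPM in KPYYF, with no overlap (−1.18, edgeR adjusted p = 0.123). Epha2, an ephrin receptor, was at 28.0 to 106 CPM and 3.72 to 21.8 CPM, with no overlap either (−2.03, adjusted p = 0.115). Groups without overlap in the lower direction made up 5.18% of all genes tested. The chemokine Cx3cl1 was at 14.3 to 73.1 CPM and 10.4 to 23.6 CPM (−1.54, adjusted p = 0.189).

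None of the 9 apoptosis targets tested and none of the 12 metabolic, redox and autophagy targets passed either rule. The methods' rule called 9.2% of all genes lower and 4.2% higher, and edgeR's adjusted p called 1.1% in either direction. In the first group Fas, the death receptor, was at −2.20 (edgeR adjusted p = 0.457), Perp, an apoptosis effector that is also part of desmosomes, at −1.78 (adjusted p = 0.344), and Bid at −1.09 (adjusted p = 0.374). In the second, Gls2, a mitochondrial glutaminase, was at 3.79 to 14.5 CPM in KPF and 0.237 to 2.63 CPM in KPYYF (−2.04, edgeR adjusted p = 0.358). Its groups did not overlap, which held in the lower direction for 5.18% of all genes tested. Its reads in KPYYF 4449, 4891 and 4938 were few, at 2, 23 and 24. Ephx1 was at −1.45 (adjusted p = 0.393) and Sesn1, the relative of Sesn2, at 1.09 (adjusted p = 0.482).

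The p21 protein lets the DREAM repressor complex assemble, which holds down genes of G2 and mitosis. All 15 of the list of such genes were tested and all 15 had a positive difference, with a median of 1.24. By the methods' rule 8 of 15 were higher, against 4.2% of all genes, 8 of 15 had groups that did not overlap, against 3.92%, and 0 of 15 passed the adjusted p. Ccna2, or cyclin A2, was at 7.10 to 31.8 CPM (median 23.4) in KPF and 61.7 to 87.6 CPM in KPYYF (1.90, standard error 0.42, edgeR adjusted p = 0.0514). Plk1, the mitotic kinase, was at 30.7 to 86.1 CPM and 94.5 to 207 CPM (1.71, standard error 0.39, adjusted p = 0.0535). Ccnb2, or cyclin B2, was at 7.98 to 33.9 CPM and 39.0 to 85.0 CPM (1.95, standard error 0.46, adjusted p = 0.0631). The further calls were Ccnb1 (1.86), the kinase Aurka (1.81), Foxm1 (1.75), the survivin gene Birc5 (1.24) and Cdc20 (1.15). Mki67, at 0.95 (edgeR adjusted p = 0.201), was under 2-fold, and Kif23, at 0.18, differed least. The count by the methods' rule ran from 6 to 10 over all 18 alternatives, and it was 8 without 4601, 4504s and 4449. The list was chosen with earlier results of these data known. Less p21 and a larger share of dividing cells cannot be told apart here, and neither was tested as a cause.

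**Figure D4:**
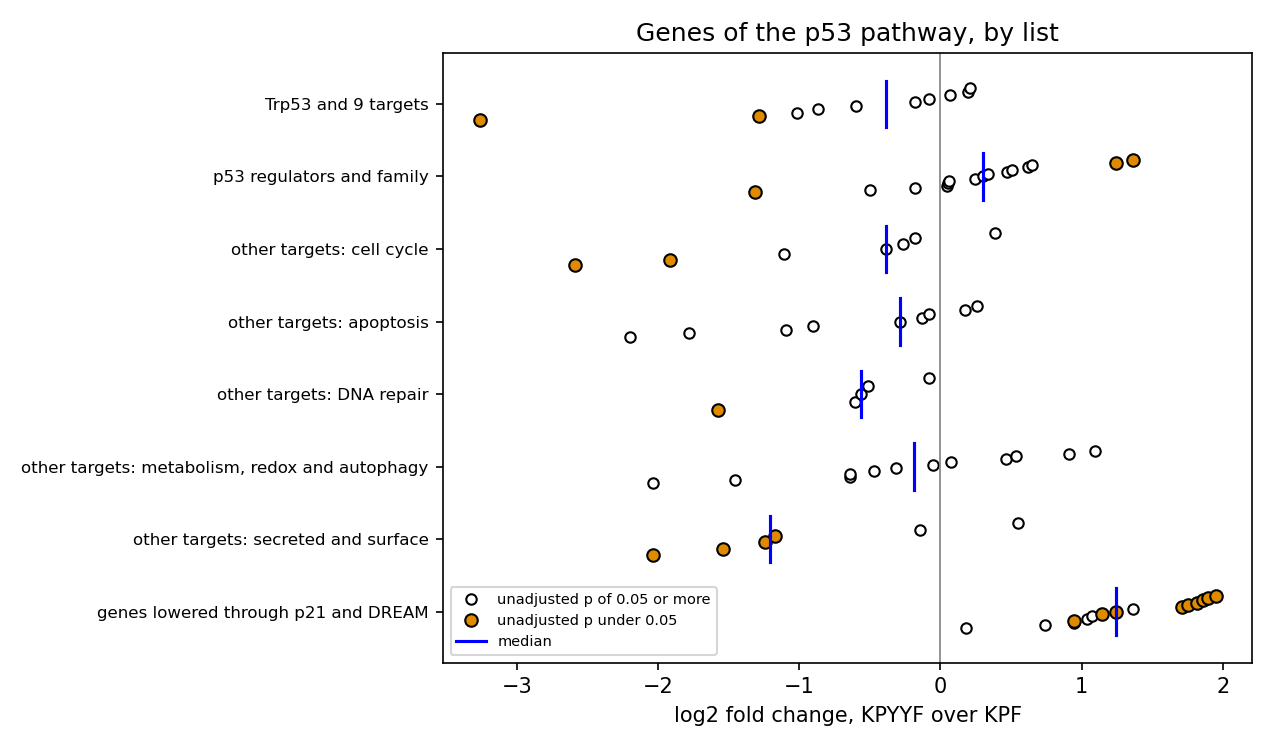
Log2 fold change of KPYYF over KPF for each tested gene of the p53 pathway, by list, with filled points for an unadjusted p under 0.05 and a blue bar at each median. Medians run from −1.21 for the secreted and surface targets to 1.24 for the genes lowered through p21 and DREAM, where all 15 points lie right of 0.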

How the data were processed

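RNA of FACS-sorted GFP+ or Tm+ cells was made into QuantSeq 3′ Forward libraries. As deposited by the authors, each file holds raw read counts per Ensembl gene of 1 library, not normalized. The submitters' processing notes name STAR, HTSeq and mm10, and versions are not given in the sources used here. Reads on genes were 37.3 to 42.0% of each file, and reads without a unique alignment 43.8 to 53.4%, and the summary lines were left out. Of 47643 identifiers, 47224 matched a symbol. Positions are from GENCODE M21.

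Genes with at least 100 counts over the 9 libraries (14105) were TMM-normalized and tested with edgeR 4.0.16's quasi-likelihood test (robust, R 4.3.3), two-sided, with Benjamini-Hochberg adjustment over all 14105 and a threshold of 0.05. Fold changes in the text are KPYYF over KPF. A second rule, from the study's methods, was an unadjusted p under 0.05 with more than 2-fold. The study applied it to DESeq2, and it was applied here to edgeR. With DESeq2 it called 2 of the 10 members, 10 of the further targets, and 636 genes higher and 1698 lower over all genes. Single genes were also compared by an exact permutation test of log2 CPM (prior count 2) over 84 splits. These splits and the main fit treated 4504h and 4504s as separate replicates, although they carry the same mouse number. With the 2 summed, edgeR gave −3.34 for Trp53inp1 (adjusted p = 0.155) and −1.35 for Cdkn1a (adjusted p = 0.184). The scripts were tested on simulated data. DESeq2 1.42.0, limma 3.58.1, other scalings and filters and left-out libraries served as alternatives. Named genes were all 10 members, list genes with an unadjusted p under 0.05 or, to reach 3 per list, the largest change, and the 5 most like Trp53 and Cdkn1a, and 2 genes (Mdm4 and Kif23) were added after their values were seen. Members and lists were chosen with earlier results of these data known. Each library carries a mouse number of its own except 4504h and 4504s. Some alleles and genes that this rule would name are not reported here.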

Additional observations from a re-analysis of the deposited data

Results flagged for a closer look

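Over 24 values (the 10 genes and the lists and marker lists as mean log2 CPM), the highest or lowest KPF library was set against the other 5 by its gap over the group's range, with a critical value of 0.625, which chance passes for about 1 in 20 groups. KPF 4435 stood apart as the highest for Bbc3 (gap 0.705), and KPF 4269 as the lowest for Sesn2 (gap 0.687). Among the marker lists, KPF 4504s was the highest for acinar markers (gap 0.65), KPF 4269 the lowest for endothelial markers (gap 0.667) and KPF 4601 the highest for immune markers (gap 0.792). The 3 KPYYF libraries were too few for this comparison.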

How the results depend on the processing

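The log2 fold changes of Cdkn1a, Ccng1, Phlda3, Zmat3 and Trp53inp1 kept their sign in all 18 alternatives. No paired analysis was possible because the labels give no replicate numbers and no mouse number occurs in both groups. For the 10 genes the count at an adjusted p of 0.05 was 0, and 1 with DESeq2, and the count by the methods' rule was 2, and 1 to 3 with each library left out. Over all genes, 43 were higher and 112 lower at that threshold. These counts were 269 and 928 with DESeq2, 88 and 219 with no filter on low counts, where the methods' rule called 1204 higher against 592, and 6 and 31 with only the libraries of at least 1000 Xist reads. The lower count was 44 with limma-voom and 177 with KPF 4601, KPF 4504s and KPYYF 4449 left out, an alternative chosen after seeing the data, and the higher count was 25 with 4504h and 4504s summed. With each library left out they were 6 to 75 and 13 to 198. With those 3 libraries left out, the methods' rule called 1 of the 10 genes, the median of the 9 targets turned from −0.60 to 0.029, that of the further targets was −0.88 and that of the regulators 0.13. The median of the further targets was −0.78 with limma-voom and −1.02 to −0.29 with each library left out, and that of the regulators 0.25 to 0.47. The differences that turned sign were those of Trp53, Mdm2, Bbc3, Bax and Sesn2, the largest of them that of Sesn2 (−0.87 in the main fit). Trp53 was −0.067 with limma-voom, −0.22 in the libraries with Xist reads, −0.10 with the 3 libraries left out and −0.19 to 0.36 with each library left out. Mdm2 was 0.13, 0.029 and −0.20 to 0.14 in the last 3 of these settings. Bbc3 was −0.069 in the libraries with Xist reads. Bax was 1.05 and Sesn2 0.15 with the 3 libraries left out, and Bax was −0.62 to 0.22 with each library left out. The cause was not tested, save that fewer libraries or genes were used where libraries were left out or filters changed. Sesn2 in KPF 4269 and KPYYF 4449 and Trp53inp1 in KPYYF 4938 rest on few reads, so counting error adds to their spread.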
